A study of Ovis aries with 24 samples.

Results

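Supraspinatus (SS), a muscle of the shoulder, was set against 2 muscles of the hind limb, the muscle coded SM and semitendinosus (ST), in wild-type sheep at T12, the labels' code for 11 to 12 weeks of age. The comparison rests on 6 of the series' 24 arrays, 2 for each muscle. A probe set (the group of short oligonucleotides that reads 1 transcript on the array) entered it where its signal was 200 or more in at least 1 of SS, SM and ST. This chose 5959 of the 24016 probe sets that are not array controls. They comprise 4293 that the platform annotation ties to 1 gene symbol, which cover 3645 of the 9155 genes with a symbol on the array. The weakest included probe set reached 200 in its brightest muscle and the strongest of those left out 199.98, so the limit cuts through a continuous range of signals. In all, 4705 of the 5959 were at 200 or more in all 3 muscles, 313 in SS only, 591 in SM or ST and not in SS, and 350 in SS and 1 of SM and ST.

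The SS, SM and ST lambs were genotype NN, the wild type at the callipyge locus, from a Dorset/Suffolk/Rambouillet cross-bred flock. The other groups used here are SS of genotype CN at T12 (the paternal heterozygote that shows the callipyge trait) and longissimus dorsi (LD), a back muscle, of genotypes CC, CN, NC and NN at T12 and at T0, around birth. RNA was hybridised to a bovine Affymetrix GeneChip, so sheep transcripts were read by probes designed for cattle. The labels name SM in conflicting ways, so the code is kept, and the sampling of SS is not described in them. The 2 arrays of a group are technical replicates per the labels, and the labels mention 8 male lambs (4 per genotype) as donors of LD, without telling which or how many lambs stand behind the RNA of SS, SM or ST. A difference between muscles therefore cannot be told apart from a difference between the lambs or pools behind each RNA, and p-values measure only the spread between group values.

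Skeletal muscles differ in their mix of slow and fast fibres. Slow fibres contract with the slow myosin and troponin isoforms, pump calcium back with SERCA2 under the brake of phospholamban, and live mainly on fat and lactate oxidised in mitochondria. Fast glycolytic fibres carry fast troponins, alpha-actinin-3 and the SERCA1 pump, break down glycogen through glycolysis, and export lactate. The supraspinatus stabilises the shoulder joint of a standing animal, whereas the hamstring muscles of the hind limb mainly propel it.

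The arrays were similar in overall signal. The median signal was 59.4 and 53.2 on the SS arrays, 59.0 and 56.55 on the SM arrays and 54.2 and 48.9 on the ST arrays. The log2 signals of paired arrays correlated with r = 0.984 in SS and 0.975 in both SM and ST over bright probe sets, and at most 0.336% of values in a pair were identical. Skeletal muscle markers stood near the top of the signal range in SS, SM and ST alike: alpha-actin (ACTA1) had a group signal of 33047 in SS, 35739 in SM and 30728 in ST, and muscle creatine kinase (CKM) 32805 in SS, 35961 in SM and 31798 in ST. SS stood further from both hind limb muscles than these stood from each other. The SD of log2 differences over the 5959 probe sets was 0.508 between SS and SM and 0.518 between SS and ST, against 0.359 between SM and ST. Likewise 264 differed by more than 2-fold between SS and SM, 287 between SS and ST, and 72 between SM and ST.

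All differences below are log2 signal in SS minus the mean of SM and ST, with the standard error (SE) and the Benjamini-Hochberg adjusted p of limma, where an adjusted p under 0.05 counts as passing. Of 15664 probe sets tested across the series 156 passed, which is 0.996%, with 0.46% higher and 0.536% lower in SS. They include 131 of the 5959 probe sets, 69 higher and 62 lower, while 1139 had an unadjusted p under 0.05. Of the 69, 43 were at 200 or more in all 3 muscles, 15 in SS and 1 of SM and ST, and 11 in SS only. Of the 62, 45 were at 200 or more in all 3 muscles and 17 in SM or ST and not in SS. Probe sets that reached 200 on 1 side only entered through the side where they are high, so the filter favours their direction. Among them are LOC513055, RCAN2, EPHX2, AKT2 and ZNF385A (SS only). MYBPH, ANKRD1, CFD, TMA16, CA4 and ISOC2 (not in SS) are others. Both SS arrays lay above all 4 SM and ST arrays for 68 of the 69 and below them for 60 of the 62. The same held for 12.9% (above) and 10.9% (below) of all probe sets tested. Per gene, by its brightest probe set, 36 of 3645 genes were higher (0.988%) and 40 were lower (1.1%). An unadjusted p under 0.05 was found for 695 of the 3645 genes, in either direction, so such a p was common. The median difference was 0.03 over all probe sets tested, -0.02 over the 5959 and -0.04 over the 3645 genes. Because each of SS, SM and ST enters the fit as 1 value, the spread comes from the LD genotypes and was assumed to hold for the other muscles. Without the dependence of that spread on signal level in the model, 3 of the 131 probe sets passed, all of them for STAC3, and 627 of the 5959 had an unadjusted p under 0.05.

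**Figure D1:**
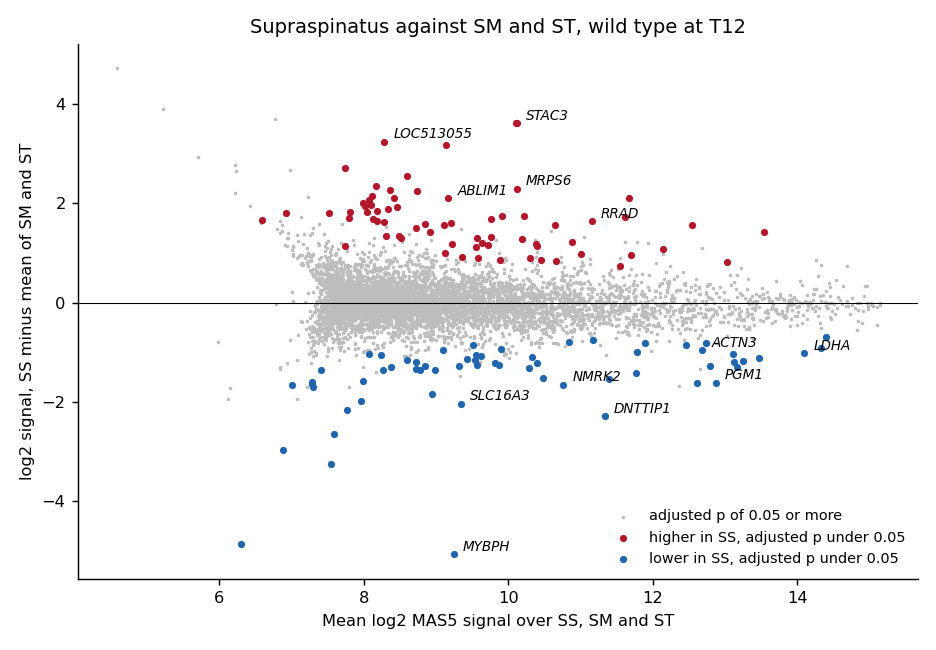
The log2 difference between SS and the mean of SM and ST (vertical axis) against the mean log2 signal of the 3 muscles (horizontal axis) for the 5959 probe sets, each a point. Red points are the 69 that were higher in SS and blue points the 62 that were lower at an adjusted p under 0.05. Of the red points STAC3 stands highest at 3.62 on one of its probe sets, and of the blue points MYBPH lowest at -5.08.

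The gene that separated the muscles most firmly was STAC3, whose product couples the voltage sensor of the muscle membrane to calcium release, as known from zebrafish and mouse. It read 5983.6 and 5878.5 on the SS arrays, against 472.5 and 461 on the SM arrays and 489 and 517.8 on the ST arrays. SS was thus 12.2-fold higher, a difference of 3.61 ± 0.22 (SE, adjusted p = 2.97e-05), with no overlap and with technical arrays of a muscle close together. Both other bright STAC3 probe sets differed by 3.62 and 3.18, and a dim one by 0.23, which did not pass. Across the series the high level went with SS: SS of CN lambs had 4395.2 and 5345.6, and the 8 LD groups had group signals between 335.8 and 571.8. STAC3 was the only one of the 36 higher and 40 lower genes whose call held under each of 32 other ways to process or fit the data.

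Some other genes of calcium signalling were also higher, though not the group as a whole. Of 20 calcium handling genes, STAC3 among them, 4 passed as higher and 0 as lower. The median difference over the 20 was 0.06, with 11 positive and 9 negative. At an unadjusted p under 0.05 limma had 6 higher and 2 lower, against 695 of all 3645 genes in either direction. The list was drawn up with earlier results of these data known, so its count of calls is no independent support. RRAD, a small GTPase that restrains voltage-gated calcium channels in heart, had 4890 and 4842.6 in SS, against 2367.8 and 2578.6 in SM and 883.6 and 1095.9 in ST (1.64 ± 0.22, adjusted p = 0.00707). The SS arrays were the highest, but SM lay between SS and ST. RCAN1, an inhibitor of the calcium-dependent phosphatase calcineurin, read 2460.3 and 1905.1 in SS, 1951.9 and 1233.1 in SM and 268 and 269.8 in ST. Its SS and SM arrays overlapped: the difference of 1.75 ± 0.21 (adjusted p = 0.00331) is made of 0.48 against SM and 3.01 against ST. Its relative RCAN2 had 611.4 and 622.9 in SS, 155.8 and 145 in SM and 187.3 and 212.5 in ST, with no overlap (1.83 ± 0.37). With an adjusted p of 0.0496 it sat at the limit, and the call was lost in 11 of 18 fits that left out an array. Against SM alone, STAC3 remained called while RRAD, RCAN1 and RCAN2 did not pass.

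Phospholamban (PLN), the inhibitor of the calcium pump in slow fibres and heart, gave different results on its probe sets. The brightest read 7396.9 and 6369.1 in SS, against 3958.6 and 2756.5 in SM and 2804.2 and 2545.5 in ST, and did not pass (1.21 ± 0.32, adjusted p = 0.15). A less bright one read 8394 and 8948.3 in SS, 2327.5 and 2099.9 in SM and 1811.4 and 1833.4 in ST and passed at 2.11 ± 0.25 (adjusted p = 0.00313). The remaining bright one differed by 1.21 and did not pass. The 2 probe sets given per array both put SS above all SM and ST arrays. The pump itself, ATP2A2 (SERCA2), was similar: its brightest probe set differed by 0.31 and did not pass, and a less bright one passed at 1.74 ± 0.30 (adjusted p = 0.0225), with 6762.5 and 7215.2 in SS, 3045.8 and 1845.6 in SM and 2076.4 and 1660.3 in ST. The fast-fibre pump ATP2A1 (SERCA1) differed by -0.27 ± 0.13 and did not pass. S100A1, a calcium-binding protein, was at 787.9 and 962.9 in SS, 386.1 and 485.8 in SM and 269.5 and 354.3 in ST, without passing (1.25 ± 0.40, adjusted p = 0.236). The store-operated channel ORAI1 (-0.84) and FKBP1A, a partner of the calcium release channel (-0.61), had lower values in SS and did not pass either.

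**Figure D2:**
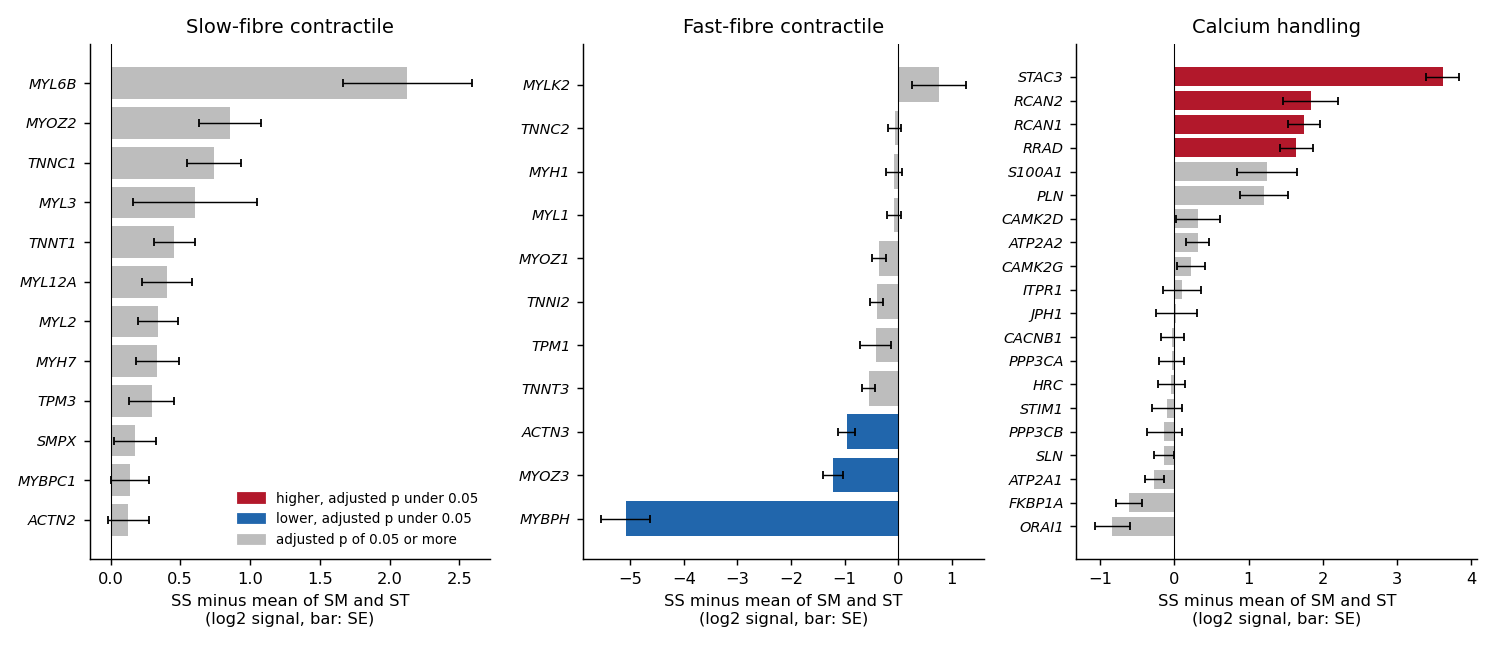
Log2 difference between SS and the mean of SM and ST (horizontal axis, bars with SE) for the brightest probe set of each slow-fibre contractile, fast-fibre contractile and calcium handling gene. All 12 slow-fibre genes lie to the right of 0 and none passed, 3 of 11 fast-fibre genes passed as lower, and 4 of 20 calcium handling genes passed as higher.

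The slow contractile genes had higher values in SS, but by small amounts. All 12 slow-fibre genes had a positive difference and both SS arrays lay above all SM and ST arrays for 9 of them. The same held for 12.9% of all probe sets tested, dim ones included. The median was 0.37, and 0 passed in limma, against 7 higher at an unadjusted p under 0.05. Slow myosin heavy chain MYH7 read 36863.5 and 37597.6 in SS, 27858.9 and 35779.5 in SM and 27726.6 and 27380.7 in ST (0.34 ± 0.15, adjusted p = 0.41). The slow and cardiac troponin C gene TNNC1 had 37039.9 and 37615.8 in SS, 23750.5 and 28908.4 in SM and 17771.2 and 20170.2 in ST (0.74 ± 0.19, adjusted p = 0.135). Both genes sit at the top of the arrays' range, where the highest signal was 37039.9 and 37968.4 on the SS arrays, so their ratios may be compressed, which was not tested.

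Further slow genes show how the hind limb muscles differ among themselves. MYL6B, an alkali light chain of slow fibres, read 405.4 and 394.4 in SS, 135.8 and 144.4 in SM and 59.7 and 59.9 in ST (2.13 ± 0.46, adjusted p = 0.0699). MYL3, the slow ventricular light chain, had 5615.9 and 6748.8 in SS, 9478.2 and 10801.2 in SM and 1648.3 and 1588.6 in ST, so SM and not SS was highest, and its difference of 0.61 ± 0.45 did not pass (adjusted p = 0.671). MYOZ2, the calcineurin-binding Z-disc protein of slow fibres and heart, was at 27550.5 and 30551.7 in SS, 19040.9 and 21255.4 in SM and 11475.2 and 14210.2 in ST (0.86 ± 0.22, adjusted p = 0.129). On both of its less bright probe sets MYOZ2 passed as higher, at 1.42 ± 0.23 (adjusted p = 0.0151) and 1.56 ± 0.27 (adjusted p = 0.0232). In whole muscle, fewer fibres of a type and less RNA per fibre cannot be told apart.

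Fast contractile genes had lower values in SS for 10 of 11 genes, with a median of -0.41. Lower calls numbered 3 and higher calls 0, and at an unadjusted p under 0.05 there were 6 lower and 0 higher. With only SS, SM and ST in the fit 1 fast gene passed, and without the intensity trend 0. The gene with the widest gap in the whole comparison was MYBPH, myosin-binding protein H of the thick filament. It read 60.6 and 55.7 in SS, against 3589 and 4198 in SM and 760.8 and 1310.9 in ST (-5.08 ± 0.46, adjusted p = 6.56e-04). The SS arrays read it at about the median signal of an array, so it may not be above background there and the size of the gap is uncertain. A second, dimmer MYBPH probe set also passed as lower at -2.97 ± 0.45 (adjusted p = 0.0116). Among all 12 groups SS of NN had the lowest MYBPH group signal at 58.1 and SS of CN the next at 211.8, while the LD groups ranged between 2947 and 10268.

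ACTN3, the alpha-actinin of the fast-fibre Z disc, had 4495.6 and 3962.8 in SS, against 7964.8 and 7559.3 in SM and 8416.9 and 9008.7 in ST (-0.96 ± 0.16, adjusted p = 0.0203). The arrays of the muscles did not overlap. MYOZ3, the fast-fibre counterpart of MYOZ2, read 819.9 and 720.4 in SS, 1511.6 and 2491.3 in SM and 1626.8 and 1700.2 in ST (-1.23 ± 0.18, adjusted p = 0.0116), and its second probe set differed by -0.84 and did not pass (adjusted p = 0.0809). The fast troponin T gene TNNT3 was at 22758.5 and 22087.8 in SS, 31913.6 and 35748.6 in SM and 30599 and 33556.5 in ST without passing (-0.55 ± 0.12, adjusted p = 0.0809). The fast myosin MYH1 (-0.08), the light chain MYL1 (-0.09) and the fast troponin C gene TNNC2 (-0.06) stood close to 0. MYH1 had group signals of 33929 in SS, 37652 in SM and 34275 in ST, and TNNC2 of 32743, 35528 and 32914. Both sit near the top of the arrays' range, so their differences may be compressed, which was not tested. Myosin heavy chain genes are also similar enough in sequence that a probe set may read more than 1 of them. MYLK2, the light chain kinase of skeletal muscle, was the 1 fast gene with a positive difference (0.75 ± 0.50, adjusted p = 0.628).

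The gene group with the most calls was glycogen use and glycolysis. Of its 26 genes 11 passed as lower and 0 as higher, with a median of -0.76, and 23 of the 26 differences were negative. At an unadjusted p under 0.05, limma had 17 lower and 1 higher. For 19 genes both SS arrays lay below all 4 SM and ST arrays, which held for 10.9% of all probe sets tested, dim ones included. With only SS, SM and ST in the fit 3 of the 26 passed, with ST alone as comparator 7, and without the intensity trend 0. The called genes lie at steps between phosphoglucomutase and the export of lactate, with uncalled genes among them.

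Phosphoglucomutase PGM1, which passes glucose units released from glycogen on to glycolysis, had 3346.2 and 3737.2 in SS, against 11140.3 and 12520.1 in SM and 10217.2 and 9931.7 in ST. SM and ST were 3.08-fold above SS, without overlap (-1.63 ± 0.15, adjusted p = 7.46e-04), and its second probe set gave -1.62. The muscle phosphofructokinase PFKM, which commits sugar to glycolysis, read 5043.5 and 4992.7 in SS, 12061.3 and 11899.4 in SM and 13591.2 and 12309.6 in ST (-1.31 ± 0.18, adjusted p = 0.00773). All 3 of its probe sets passed, the other two at -1.29 and -1.42. Between these steps glucose phosphate isomerase GPI passed as lower (-1.18 ± 0.18, adjusted p = 0.0121), with 5463.8 and 5867.8 in SS, 12433.8 and 12624.2 in SM and 12350.7 and 13885.2 in ST. The muscle fructose bisphosphatase FBP2, which runs the opposite reaction to PFKM, was lower too (-1.20 ± 0.18, adjusted p = 0.0119). It read 4981.4 and 5287 in SS, 11047.2 and 12745.9 in SM and 10425.9 and 13111.9 in ST, again with no overlap.

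Further down, triose phosphate isomerase TPI1 passed at -1.04 ± 0.16 (adjusted p = 0.0121), muscle phosphoglycerate mutase PGAM2 at -0.93 ± 0.13 (adjusted p = 0.00946) and muscle enolase ENO3 at -0.69 ± 0.13 (adjusted p = 0.0368). The pyruvate kinase PKM passed at -1.16 ± 0.23 (adjusted p = 0.0477), near the limit. LDHA, the lactate dehydrogenase subunit of glycolytic muscle, had 11496.9 and 10348.5 in SS, against 22590.3 and 23402.9 in SM and 20134.2 and 22531.9 in ST (-1.02 ± 0.13, adjusted p = 0.00544). LDHB, the subunit typical of heart and oxidative muscle, ran the other way with 3716.1 and 4074.3 in SS, 1824.4 and 1733.8 in SM and 1326.3 and 1421.9 in ST, and did not pass (1.32 ± 0.37, adjusted p = 0.167). SLC16A3 (MCT4), the carrier that exports lactate from fast fibres, read 245.4 and 259.6 in SS, 1051.5 and 1302.9 in SM and 1103.5 and 779.5 in ST (-2.05 ± 0.34, adjusted p = 0.0203). Its 2 further probe sets passed at -1.84 and -2.66. SLC16A1 (MCT1), the widely expressed lactate carrier, had a difference of 0.35 ± 0.23 and did not pass.

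Other steps did not pass, among them aldolase ALDOA (-0.24), glycogen phosphorylase PYGM (-0.42), glycogenin GYG1 (-0.07) and hexokinase HK1 (-0.04). Phosphoglycerate kinase PGK1 had as large a difference as PFKM without passing (-1.33 ± 0.38, adjusted p = 0.178), with 3776.9 and 3224.6 in SS, 9304.4 and 8006.7 in SM and 8200.4 and 9789.2 in ST. PPP1R1A, an inhibitor of protein phosphatase 1, was called lower at -0.86 ± 0.15 (adjusted p = 0.0203). SS of CN lambs, which does not enter these differences, had PGM1 at 4570.1 and 5361.2, PFKM at 7355.2 and 6726, LDHA at 14572 and 14108.9 and SLC16A3 at 407.2 and 161.

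**Figure D3:**
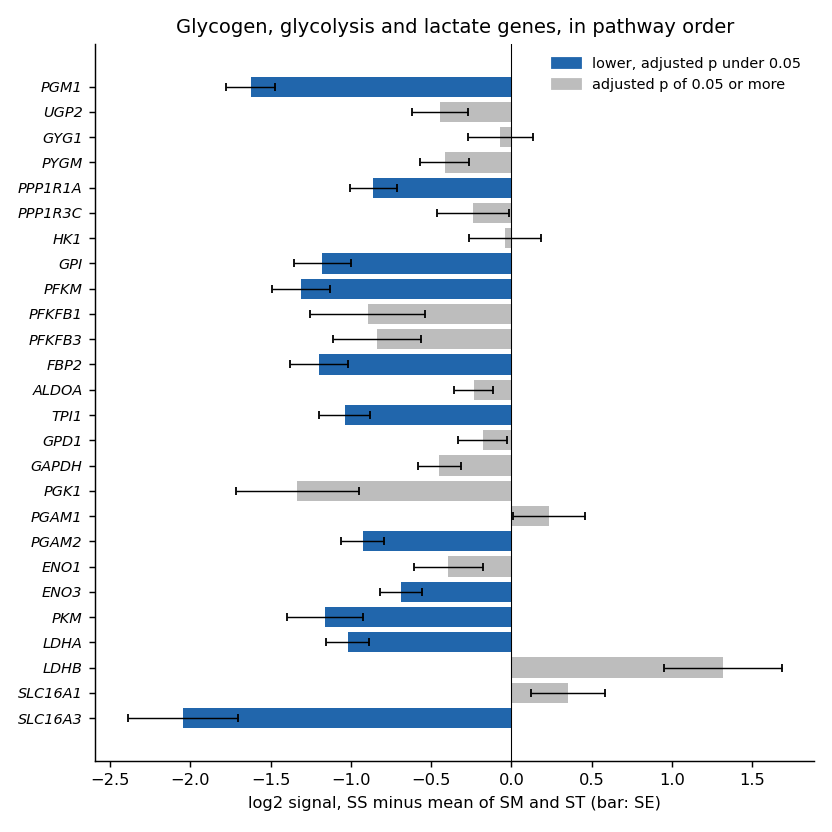
Log2 difference between SS and the mean of SM and ST (horizontal axis, bars with SE) for the 26 genes of glycogen use, glycolysis and lactate transport, listed in pathway order. The 11 blue bars are genes lower in SS at an adjusted p under 0.05, and LDHB at 1.32 is the longest bar to the right of 0.

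The log2 ratio of the array's 3' to 5' GAPDH controls, a reading of RNA quality, differed between SS and the hind limb arrays. It was 0.02 and 0.06 in SS, against 0.22 and 0.11 in SM and 0.20 in both ST arrays. At T12 the groups with ratios as low as in SS were SS of CN (-0.03 and 0.09), LD of CC (0.07 and 0.04) and LD of CN (-0.03 and 0.08). PFKM was at 7034 in SS of CN, 14222 in LD of CC and 18053 in LD of CN, and SLC16A3 at 256, 1459 and 2423 in the same order. The part of RNA quality in the glycolytic result was not tested. For actin the ratio was 0.13 and 0.09 in SS, within the range of 0.000228 to 0.19 in SM and ST, so only the GAPDH ratio differed. GAPDH is itself a gene of the glycolysis list.

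Fat metabolism went partly the other way. Of 27 genes of fatty acid uptake and oxidation 3 were higher and 1 lower, the median was 0.36, and 21 of 27 differences were positive. At an unadjusted p under 0.05 the counts were 11 higher and 2 lower. Calls fell to 2 with only SS, SM and ST in the fit and to 1 with SM alone as comparator. Lipoprotein lipase LPL, which frees fatty acids from blood lipids, had 1920 and 1858.9 in SS, 672.6 and 677 in SM and 557.2 and 468.4 in ST (1.69 ± 0.25, adjusted p = 0.0104), without overlap. The fatty acid transporter CD36 read 6931.8 and 7998 in SS, 4397.7 and 5326.7 in SM and 2619.5 and 2455.6 in ST (1.09 ± 0.22). Its adjusted p of 0.0496 was at the limit and its call was lost in 14 of 18 fits that left out an array.

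ACAT1, a mitochondrial thiolase, was at 12151.1 and 12084 in SS, 7411.3 and 7375.6 in SM and 6311.1 and 6613.9 in ST (0.81 ± 0.14, adjusted p = 0.0232), with no overlap. Higher values without passing were found for the beta-oxidation subunit HADHB (0.97 ± 0.26, adjusted p = 0.144), the fatty acid binding protein FABP3 (0.76 ± 0.22, adjusted p = 0.178) and CPT1B, the muscle enzyme that loads fatty acids for entry into mitochondria (0.62 ± 0.18, adjusted p = 0.187). UCP3, the mitochondrial uncoupling protein of skeletal muscle, was the 1 gene lower in SS. It had 1355.2 and 1287.9 in SS, against 3277.2 and 3771.7 in SM and 4231.9 and 4158.2 in ST (-1.54 ± 0.27, adjusted p = 0.0232).

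The summed signal of the 23 adipocyte markers with a probe set was 3134 and 3821 on the SS arrays, against 2509 to 2864 on the SM and ST arrays. Of 5 adipocyte genes at 200 or more 0 passed as higher. Of the markers THRSP, ELOVL6 and LEP were below 48.9, the lowest array median, on all 6 arrays. The fat hormone gene ADIPOQ read 324.4 and 359.4 in SS, 194 and 179.7 in SM and 243.9 and 191.2 in ST (0.77, adjusted p = 0.487), and the triglyceride synthesis enzyme DGAT2, which makes up a large part of the gap in the sum, read 427.1 and 436.6 in SS, 62.3 and 60.2 in SM and 76.3 and 74.5 in ST (2.67, adjusted p = 0.216). The 1 call among 5 adipocyte genes was for complement factor D, CFD, in the lower direction (-1.71 ± 0.28, adjusted p = 0.0169), but its SS arrays read 174.3 and 29.5, and without the second of these the difference was -0.43. The endothelial sum, which bears on CD36 because capillary cells carry it too, was 7459 and 7509 in SS, within the range of 7342 to 10440 in SM and ST. The part of fat cells in the LPL and CD36 results was not tested, nor that of capillary cells in CD36.

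Mitochondrial respiration genes had slightly lower group values in SS than the mean of SM and ST, but single arrays of SS and ST were not clearly apart. Of 65 oxidative phosphorylation genes 0 passed in limma in either direction, 63 had a negative difference, and the median was -0.23 with a range of -0.60 to 0.17. At an unadjusted p under 0.05 there were 21 lower and 0 higher. Both SS arrays lay below all SM and ST arrays for 19 of the 65, and for 10.9% of all probe sets tested, dim ones included. The summed signal of the 65 was 488812 and 500932 on the SS arrays. It was 576444 and 665067 on the SM arrays and 488342 and 598148 on the ST arrays, so the lower ST array lay at the level of SS. NDUFS8, a subunit of complex I, was the most negative at -0.60 ± 0.15 (adjusted p = 0.104), with 2427.4 and 2178.8 in SS, 4032 and 3892.7 in SM and 2707.4 and 3461.8 in ST. NDUFA3, a complex I subunit outside the list, passed as lower (-1.01 ± 0.16, adjusted p = 0.0151), at 2050.7 and 2386.1 in SS, 5110 and 6377.6 in SM and 2756.7 and 4344.2 in ST. In the TCA cycle 0 of 25 genes passed, with a median of -0.17. At an unadjusted p under 0.05 there were 6 lower and 1 higher, against 695 of all 3645 genes in either direction. IDH3A, a subunit of isocitrate dehydrogenase, passed as lower on a less bright probe set (-1.28 ± 0.25, adjusted p = 0.0403) and not on its brightest (-0.95 ± 0.23, adjusted p = 0.0954). Myoglobin (MB) differed by -0.17 ± 0.18, with 21299.9 and 20974.1 in SS, 23828.1 and 26640.9 in SM and 22594.5 and 22323 in ST. PPARGC1A, a coactivator of mitochondrial biogenesis, read 200.8 and 268.2 in SS, 393 and 392.2 in SM and 638.2 and 598.7 in ST without passing (-1.09 ± 0.25, adjusted p = 0.0888).

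Several single metabolic genes passed. The membrane carbonic anhydrase CA14 had 710.2 and 700.1 in SS, 2319.6 and 2429.8 in SM and 1611.2 and 1875.3 in ST (-1.53 ± 0.19, adjusted p = 0.00351). Adenylate kinase AK1, which regenerates ATP from ADP, had 6554.3 and 6981.5 in SS, 12879.7 and 15040.7 in SM and 14188.1 and 16712.3 in ST (-1.11 ± 0.15, adjusted p = 0.00732). These were the lower calls among 8 genes of oxygen and creatine handling, whose median was -0.32. NMRK2, the muscle kinase that makes NAD precursor from nicotinamide riboside, read 730.5 and 887.6 in SS, 1892.3 and 2062.5 in SM and 2653.7 and 4099 in ST (-1.66 ± 0.20, adjusted p = 0.0033). SS of CN lambs read it at 1547.4 and 2062.8, level with SM, and its call was lost with SS of NN and CN pooled and with only SS, SM and ST in the fit. NAMPT, the first enzyme of the other NAD salvage route, was lower at -1.21 ± 0.23 (adjusted p = 0.0349), with 567.4 and 466 in SS, 1567.4 and 1126.4 in SM and 1168.9 and 978.8 in ST. On the higher side, the mitochondrial acetyl-CoA synthetase ACSS1 had 1020.2 and 806.2 in SS, 226.5 and 154.3 in SM and 222.3 and 253.2 in ST (2.11 ± 0.34, adjusted p = 0.0151), though a second probe set at 1.09 did not pass. ALAS1, the first enzyme of haem synthesis, was higher at 1.14 ± 0.21 (adjusted p = 0.0349), with 2156.3 and 2400.6 in SS, 1083.9 and 1246.5 in SM and 783.6 and 1079.7 in ST.

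The remaining genes with large positive differences have varied roles. LOC513055, which the annotation leaves without a further name, read 1348.5 and 1438.6 in SS, 131.5 and 161.7 in SM and 120.8 and 184.5 in ST, a 9.44-fold gap (3.24 ± 0.31, adjusted p = 8.52e-04). It was at 1616.2 and 1523.3 in SS of CN lambs and at 70.0 to 107.4 in the LD groups. MRPS6, a protein of the small mitochondrial ribosomal subunit, had 3255.4 and 3160 in SS, 816.8 and 707.5 in SM and 463.6 and 687.8 in ST (2.29 ± 0.23, adjusted p = 9.27e-04). For both genes the SS arrays stood well clear of the others.

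LAPTM4B, a lysosomal membrane protein, had 997.6 and 731.2 in SS, 79.9 and 179.7 in SM and 202.1 and 266.3 in ST (2.36 ± 0.26, adjusted p = 0.00243). ABLIM1, an actin-binding LIM protein of the sarcomere, was at 1617.1 and 1428.8 in SS, 413.3 and 395.1 in SM and 326.9 and 296.7 in ST (2.10 ± 0.24, adjusted p = 0.00251), and passed again at 2.07 on a second probe set. PTP4A2, a membrane-anchored protein tyrosine phosphatase, read 2412.9 and 2944.1 in SS, 725.3 and 825.2 in SM and 673.9 and 1017.5 in ST (1.74 ± 0.18, adjusted p = 0.0011). None of these overlapped between SS and the hind limb. The nuclear transport receptor XPO4 passed on both of its probe sets (1.94 ± 0.26 and 1.80 ± 0.25), the secreted protein LGI1 at 1.88 ± 0.28 (adjusted p = 0.0108) and the soluble epoxide hydrolase EPHX2 at 1.82 ± 0.29 (adjusted p = 0.0147). ZNF385A, a zinc finger protein, passed at 1.67 ± 0.30 (adjusted p = 0.0261) with SM arrays of 44 and 20.7, below the array medians.

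AKT2, a kinase of insulin signalling and the 1 call among 15 growth signalling genes, passed at 1.81 ± 0.36 (adjusted p = 0.0441). Its SM arrays read 17.6 and 156.2, and without the first of these the difference was 1.02. A second AKT2 probe set went the other way (-0.54). Another, under 200 in all 3 muscles, passed at 2.98 (adjusted p = 0.0397). That one had group signals of 116.9 in SS, 56.6 in SM and 3.89 in ST, far below the array medians in ST, so its size is uncertain. JUN, an immediate early transcription factor, did not pass on its brightest probe set and passed on both others, at 2.72 ± 0.46 (704.5 and 800.3 in SS, 184.6 and 225.6 in SM, 93.6 and 43.8 in ST) and at 1.96 ± 0.34 (612.2 and 757.6 in SS, 192.5 and 247.1 in SM, 109.2 and 180.1 in ST). Among 26 heat shock and immediate early genes 0 passed by their brightest probe set in limma. The median was 0.02 and turned to -0.02 when arrays were centred on their median. At an unadjusted p under 0.05 there were 2 higher and 3 lower, against 695 of all 3645 genes in either direction. The 3 largest differences were those of NR4A1 (-1.39), ATF3 (-1.09) and IER3 (0.84). Further genes called higher include the large-conductance potassium channel KCNMA1 (on both of its probe sets, by 1.84 on the less bright), the pyruvate dehydrogenase kinase PDK3 (1.34), the ADP/ATP carrier SLC25A5 (865.6 and 822.1 in SS, 305.4 and 271 in SM, 293.8 and 324.6 in ST), the amyloid precursor APP (1.62), the co-chaperone BAG3 (0.91) and the translation factor EIF4G1 (0.85).

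**Figure D4:**
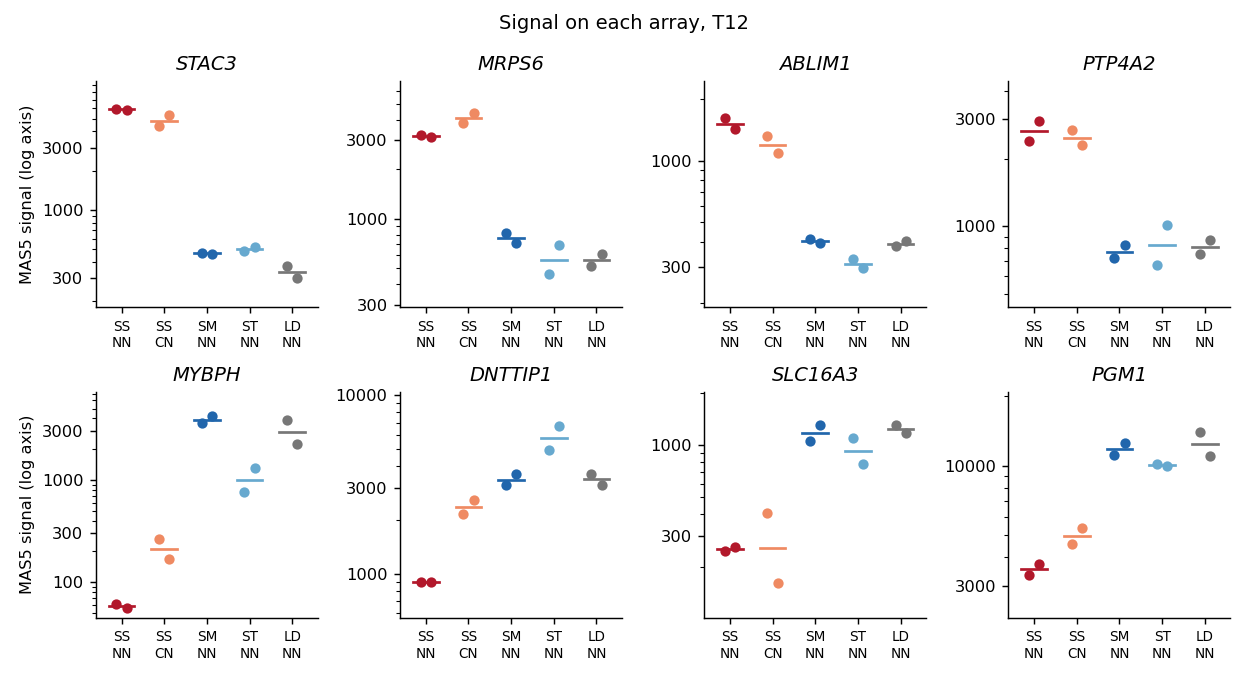
Signal on each array at T12 (log axis) for STAC3, MRPS6, ABLIM1 and PTP4A2, higher in SS, and MYBPH, DNTTIP1, SLC16A3 and PGM1, lower in SS. Each point is an array and each line the group signal, for SS of NN, SS of CN, SM, ST and LD of NN lambs. In each panel both SS arrays of NN lambs lie on one side of all SM and ST arrays.

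On the lower side, DNTTIP1, a subunit of a histone deacetylase complex, had 895.8 and 900.4 in SS, 3146 and 3597.2 in SM and 4903.1 and 6737.9 in ST (-2.29 ± 0.26, adjusted p = 0.00251). At T0 the LD groups had DNTTIP1 between 807.1 and 1442, and at T12 between 3369 and 9936, so its level in SS at T12 lay within the LD values around birth. SMYD2, a lysine methyltransferase, read 703 and 655 in SS, 1997.9 and 1961.9 in SM and 1477.5 and 1414.3 in ST (-1.32 ± 0.22, adjusted p = 0.0203). ANKRD1, a titin-binding protein of the stretch response and the 1 call among 18 stretch and sarcomere genes, had 123.6 and 214.5 in SS, 507.7 and 486.8 in SM and 311.5 and 407 in ST (-1.37 ± 0.23, adjusted p = 0.0203). Its LD level in NN lambs, 2324.1 and 2424.5, was far above all 3 muscles, and without the first SS array the difference was -0.97. In the same list FHL2 (1.39, adjusted p = 0.468) and PDLIM3 (1.02, adjusted p = 0.343) had higher values in SS and did not pass. PDLIM3 differed by 0.04 against SM, and its second probe set went the other way (-0.48).

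Several of the 15 genes with the largest negative differences rest on uneven technical arrays, as CFD does. TMA16, named for translation machinery, read 345.3 and 42.7 in SS, overlapping ST at 337.4 and 275.4, and its difference of -1.59 became -0.08 without the second SS array. The carbonic anhydrase CA4 read 148.3 and 37.6 in SS, and its -1.60 became -0.61 without that array. ISOC2 had 76.7 and 69.6 in SS and 61.7 and 336.2 in ST, which overlap, and its -1.65 became -1.03 without the second ST array. RABGGTA, a subunit of the enzyme that lipidates Rab proteins, read 163.7 and 333.3 in SS, 548.2 and 599.1 in SM and 599.1 and 659.1 in ST (-1.36), and became -0.85 without the first SS array.

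Genes that set position along the body and limb were examined because a forelimb and a hind limb muscle come from different segments. Only 7 of the 54 genes of this list had a probe set at 200 or more, and 1 of the 7 passed, with a median of 0.52. PITX1 and HOXB3 reached 200 in SS only, which lifts that median, and over all 14 genes of the list that were tested it was 0.27. HOXA9, a homeobox gene of the trunk and limbs, had 1740.9 and 2526.5 in SS, 1216.3 and 1048.5 in SM and 586.3 and 757.7 in ST (1.27 ± 0.19, adjusted p = 0.0119). SS was highest and SM lay between SS and ST, and against SM alone the call was lost. Its group signal was 2079 in SS of CN lambs and 413.7 to 578.1 in LD at T12. PITX1, known from mouse and chick for hind limb identity, had its higher value in the shoulder muscle, at 241.2 and 297.1 in SS, 47.4 and 3.8 in SM and 109 and 120.2 in ST, and did not pass (2.77 ± 0.88, adjusted p = 0.225). HOXB3, a homeobox gene of anterior segments, read 229.3 and 264.2 in SS, 51.4 and 100.8 in SM and 74.6 and 99.6 in ST (1.64 ± 0.43, adjusted p = 0.136). MEIS2 (-0.55), HOXA4 (0.52), HOXA10 (0.33) and HOXA5 (0.21) did not pass.

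**Figure D5:**
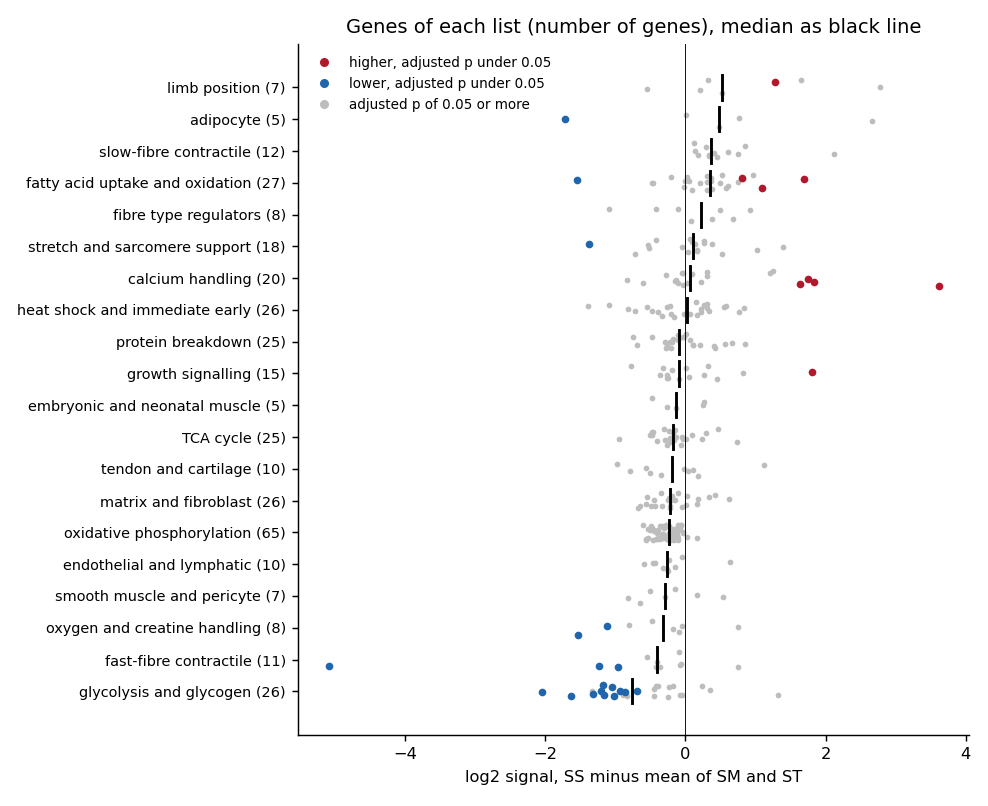
Log2 difference between SS and the mean of SM and ST (horizontal axis) for the genes of the 20 lists with 5 or more genes at 200 or more, each gene a point and the list median a black line. Glycolysis and glycogen has a median of -0.76, with 11 of 26 genes lower. Genes that reached 200 in 1 muscle only had to differ, as PITX1 and HOXB3 in limb position, so the medians of short lists are not ranked.

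Markers of other cell types and further muscle programmes gave few calls. With 0.988% of all 3645 genes called higher and 1.1% lower, 0 calls in lists of these sizes says little. In limma 0 genes passed among 26 of matrix and fibroblasts (median -0.21), 10 of tendon and cartilage (-0.18), 10 of endothelium (-0.26), 7 of smooth muscle (-0.28), 4 of immune cells (-0.24), 2 of nerve, Schwann and satellite cells (-0.02), 5 of embryonic and neonatal muscle (-0.13), 25 of protein breakdown (-0.08), 8 fibre type regulators (0.23) and 4 of the circadian clock (-0.03). At an unadjusted p under 0.05 these lists held, in the same order, 1, 0, 0, 1, 0, 0, 0, 1, 3 and 0 higher genes and 4, 3, 2, 2, 0, 0, 0, 1, 1 and 0 lower genes. Of all 3645 genes 695 had such a p in either direction. No red blood cell gene reached 200. The median was -0.09 for growth signalling and 0.12 for stretch and sarcomere support.

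The summed signal of matrix markers was 79521 and 80100 in SS, against 83771 to 87896 in SM and ST, and that of tendon and cartilage markers 11176 and 11228 in SS, against 12258 to 16321 in SM and ST. Immune cell markers summed to 2539 and 2580 in SS, against 2861 to 3718 in SM and ST, and red blood cell markers to 113 and 117 in SS, against 136 to 254 in SM and ST. On these arrays 4 of 7 blood markers, 7 of 25 immune markers and 2 of 16 tendon markers were below 48.9 on all 6, so the blood sum is near background. The SS sums lay below those of SM and ST for these lists, and none of their genes at 200 or more passed. The matrix enzyme LOX, under 200 in all 3 muscles, passed as lower at -2.02. Smooth muscle markers (21288 and 22157 in SS, 20014 to 23882 in SM and ST) and nerve markers (975 and 1209 in SS, 926 to 1070 in SM and ST) overlapped. Desmin (DES), also a skeletal muscle gene, made up most of the smooth muscle sum, at 15266.7 and 14833.1 in SS and 11767.1 to 14070.4 in SM and ST. Of 7 smooth muscle genes at 200 or more, 5 had a negative difference (among them ACTA2 at -0.65 and TAGLN at -0.82). The other 2 were positive, SMTN (0.53) among them. That sum therefore says little about smooth muscle cells.

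Of the 131 called probe sets 30 carry no single gene symbol, 17 higher and 13 lower. The largest gap among them was -4.88, for a probe set with a group signal of 8.29 in SS, 201.8 in SM and 294.7 in ST, where SS is far below the array medians and the size is uncertain. Another differed by 2.54, with 1251 in SS, 189.7 in SM and 242.5 in ST.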

How the data were processed

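Per the submitters' processing notes, the authors' deposited values are MAS5 signal, a linear intensity per probe set, with no version named. Their 2% trimmed mean was near 200 on each of the 24 arrays. Here, 4295 of 579072 intensity values below 1 were set to 1, log2 was taken, and the 2 technical arrays of a group were averaged. The 12 group values were fitted in limma 3.58.1 (R 4.3.3; lmFit, eBayes with intensity trend, two-sided) in 8 cells, with CC, NC and NN of LD as 3 values of a cell at each age, leaving 4 residual degrees of freedom (prior 6.88). The 15664 probe sets whose group signal exceeded 49.7, the median over all probe sets, in at least 1 group were tested, without 112 control probe sets. The code was tested on simulated data.

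Symbols came from the platform annotation of 2016: 13318 probe sets had 1, 86 several and 10724 none. Of 3645 symbols, 3477 occur in the RefSeq table of sheep assembly ARS-UI_Ramb_v3.0. Genes were named by rule: the 15 largest called differences each way, and the limb, slow, fast and calcium lists where called or past 0.5. The 3 largest of each other list were also picked by rule, but only some of them are described. Further genes were named after their values were seen, to describe groups. The 24 lists hold 690 genes, 361 at 200 or more. The members and lists were chosen with earlier results of these data known. The small number of arrays limits precision.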

Additional observations from a re-analysis of the deposited data

How the results depend on the processing

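Against 131 calls (69 higher, 62 lower), counts within 1.5 times were found with a floor of 32, quantile normalization, median centring and other filters on dim probe sets. All 131 kept their sign in every alternative that tested them, which is no support for them. Alternatives that change only the filter, the trend or the LD values leave the differences as they are, and the 131 were chosen for large differences. SM alone as comparator gave 81 calls (42 higher, 39 lower) and ST alone 78 (49 and 29). Fitting only SS, SM and ST gave 49 (32 and 17), only the T12 groups 84 (43 and 41), and no intensity trend 3 (3 and 0, with 274 lower at an unadjusted p under 0.05). SS of NN and CN together gave 314 (170 and 144), which holds SS at 2 values. The 6 single arrays, which measure technical spread only, gave 308 (173 and 135). With the replicate block they gave 648 (319 and 329). Differences between array 1 and 2 correlated at r = 0.159 for SS and SM, 0.0965 for SS and ST and 0.323 for SM and ST; not every pair was over 0.1 and the labels state no pairing, so the numbers were not used as pairs. Leaving out single arrays gave 80 to 182 calls, 42 to 90 higher and 38 to 92 lower; the lowest was without the second LD array of NC at T12 (80, with 42 higher and 38 lower). Reversed values were MYL3 against SM alone (-0.72), BHLHE40 against SM alone (0.18) and BOLA-DRA against ST alone (0.056). The causes were not tested. Dim signals near 48.9 to 59.4, the array medians, limit sizes.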

Other observations

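Genes outside the fixed lists, chosen after their values were seen, also passed. PALMD, a relative of the membrane protein paralemmin, was higher at 1.18 ± 0.21 (adjusted p = 0.0272), with 2135 and 2504.3 in SS, 941.2 and 1321.5 in SM and 861.2 and 1013 in ST. DPYSL2, a regulator of microtubules, was higher on both of its probe sets. The brighter read 3597.9 and 4855.3 in SS, 2213.6 and 2817 in SM and 2400.4 and 2657.9 in ST (0.73 ± 0.14, adjusted p = 0.0339), without overlap. NR2F2, a nuclear receptor of mesodermal tissues, was lower at -0.86 ± 0.17 (adjusted p = 0.0376), with 465.6 and 519.7 in SS, 821.5 and 961.1 in SM and 791.6 and 1014.5 in ST. SLC25A11, the mitochondrial carrier of the malate-aspartate shuttle, was lower at -0.81 ± 0.16 (adjusted p = 0.0441), with 2569.4 and 2630.8 in SS, 4494.1 and 4980.7 in SM and 4149.9 and 4680.8 in ST.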
